A study of Mus musculus with 8 samples.

Results

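The 34 genes described here serve amino acid supply and the response to stress in the endoplasmic reticulum (ER), out of 18193 genes measured in mouse neurospheres with and without FoxO3. They were chosen by name, and all 34 were measured. A gene is read from the probe sets that the platform annotation gives to its symbol alone, and where it has several, the one of highest mean stands for it.

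When amino acids run short or unfolded proteins build up in the ER, kinases phosphorylate the translation factor eIF2, most protein synthesis slows, and the mRNA of the transcription factor ATF4 is translated better. ATF4, with its partners, turns on genes for amino acid transport, asparagine and serine synthesis, and, under lasting stress, the pro-death factor CHOP. A separate branch of the ER response, run by ATF6 and by XBP1 after the sensor IRE1 has spliced its mRNA, turns on the chaperones that fold secreted and membrane proteins.

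The spheres are floating clusters of neural stem and progenitor cells with their differentiating progeny, passaged once and grown from forebrain cells. Wild type (FoxO3+/+) and FoxO3 null (FoxO3-/-) mice of the FVB/N strain were compared. FoxO3 is a forkhead transcription factor that insulin and growth factor signalling hold out of the nucleus, and the series asks about its role in the maintenance of adult neural stem cells. All cultures were in medium with bFGF and EGF at 20 ng/ml each, were seeded at 50000 cells/ml, and were collected 6 days later. RNA was hybridised to Affymetrix Mouse430_2 arrays, 1 sample an array. The 4 arrays of each genotype are numbered in 2 sets, so each set holds 2 arrays of each genotype (1_1 and 1_2, 2_1 and 2_2). The labels leave unsaid what distinguishes the sets, how many animals were used and how old they were, and whether 2 arrays of the same kind were separate cultures. The p-values below thus cover just the spread from array to array, which could be technical.

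Foxo3 itself fell by 1.17 ± 0.08 on the log2 scale (SE, 4 arrays per genotype, limma adjusted p = 0.000649). It read 10.24, 10.26, 10.32 and 10.00 on the wild type arrays and 8.86, 9.08, 9.05 and 9.14 on the FoxO3 null arrays, so the labels and the targeted gene go together. Of its other single-symbol probe sets, 1 differed by -1.07 and 1 by 0.33, which did not pass. Values throughout are log2 expression values, and array medians lay between 6.27 and 6.31. Arrays of different sets correlated less over all probe sets (r at most 0.9908) than arrays of the same set (at least 0.9957). Among 12 neural progenitor markers, Fabp7 read 14.48 to 14.62 over the arrays, Sox2 12.46 to 13.19 and Prom1 5.71 to 7.13. Among 8 microglial markers, Itgam read 4.55 to 4.77 and Csf1r 6.73 to 7.10, and among 6 endothelial ones Tek read 4.77 to 5.01 and Kdr 7.05 to 7.35. Oligodendrocyte markers were also present, with Mbp at 11.13 to 13.95.

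Across both sets, 2 of the 34 genes were lower in FoxO3 null spheres and 0 were higher. The test was limma with set as a term, two-sided, with Benjamini-Hochberg adjustment over all 18193 genes and a threshold of 0.05. Over all genes, 1.17% passed as lower and 0.429% as higher, and a count of 2 does not set the members apart from the rest. The lower pair were Ddit3, which encodes CHOP, and Trib3, a pseudokinase that CHOP and ATF4 induce and that restrains ATF4. At an unadjusted p under 0.05, 4 members were lower and 2 higher, where 7.18% and 8.32% of all genes were. Signs were evenly split, 17 negative and 17 positive, and the median difference was 0.00 in the members and 0.01 over all genes.

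**Figure D1:**
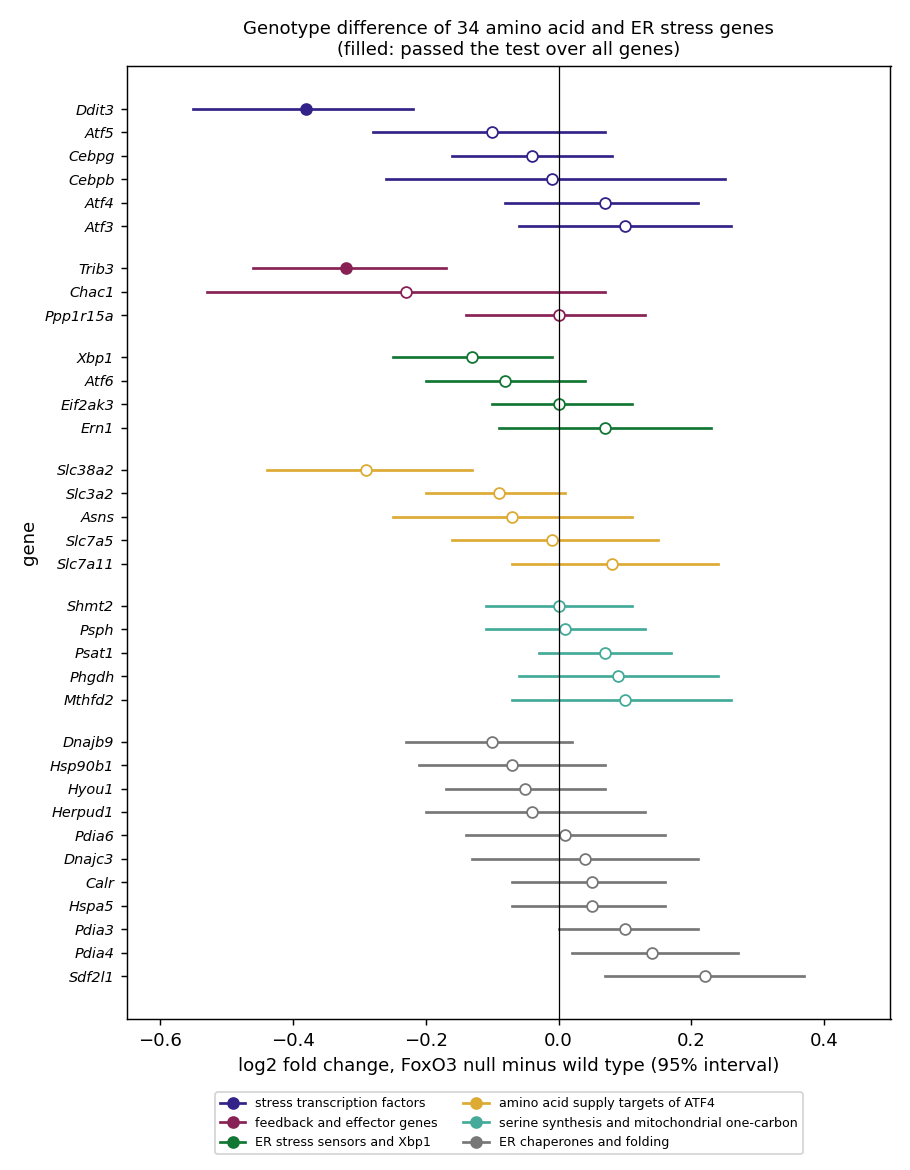
Genotype difference of each of the 34 genes (log2 fold change, FoxO3 null minus wild type, both sets together, with its 95% confidence interval), grouped and coloured by role. Filled points passed the limma test over all genes. The filled points are Ddit3 at -0.38 and Trib3 at -0.32, and the largest positive value is that of Sdf2l1 at 0.22.

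Of the 6 stress transcription factors, Ddit3 alone passed. Ddit3 read 9.02 and 9.13 on the wild type arrays and 8.68 and 8.60 on the FoxO3 null arrays of set 1. In set 2 it read 8.69 and 8.52 against 8.41 and 8.12. In each set both FoxO3 null arrays lay below both wild type arrays, but the wild type of set 2 lay at the level of the FoxO3 null of set 1, so the 4 and 4 arrays overlapped. The means were 8.84 ± 0.28 and 8.46 ± 0.25 (SD, n = 4 each). The difference within sets was -0.38 ± 0.07 (SE, 95% interval -0.55 to -0.22, limma adjusted p = 0.0312), which leaves 76.6% of the wild type level. The other Ddit3 probe set differed by -0.05 (adjusted p = 0.832).

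Atf4 encodes the factor above Ddit3 and is controlled largely at translation, which arrays do not read. Its mRNA read 11.47 and 11.58 in wild type and 11.52 and 11.45 in FoxO3 null spheres of set 1, then 11.32 and 11.44 against 11.62 and 11.49 in set 2. The genotypes overlapped in set 1, and in set 2 both null arrays were the higher ones. The difference was 0.07 (95% interval -0.08 to 0.21, limma adjusted p = 0.691). The other Atf4 probe sets differed by -0.15 and 0.03 and did not pass, so the probe sets of Atf4 do not share a sign.

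Atf3, a factor induced early in stress, read 6.03, 5.70, 6.08 and 6.06 in wild type (arrays 1_1, 1_2, 2_1 and 2_2) and 6.04, 5.92, 6.09 and 6.21 in FoxO3 null spheres. These low readings overlapped, with a difference of 0.10 and a limma adjusted p of 0.579. Atf5, another member of the ATF4 family that is translated under stress, differed by -0.10, Cebpg, a dimer partner of ATF4, by -0.04, and Cebpb, a C/EBP factor induced by ATF4, by -0.01. For the 5 factors that did not pass, the 95% intervals reached from -0.28 to 0.26. By the probe sets that stand for them, the intervals thus span 1.21-fold down to 1.20-fold up. They cover the spread from array to array, and for a dim probe set such as that of Atf3 they do not limit the change in mRNA.

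The 3 feedback and effector genes are Trib3, Chac1 and Ppp1r15a. Trib3 read 7.05 and 6.95 in wild type and 6.67 and 6.65 in FoxO3 null spheres of set 1, and 6.81 and 6.71 against 6.59 and 6.34 in set 2. Every FoxO3 null array lay below every wild type array. The means were 6.88 ± 0.15 and 6.56 ± 0.15 (SD, n = 4 each), a difference of -0.32 ± 0.06 (SE, 95% interval -0.46 to -0.17, limma adjusted p = 0.0386). Its other probe set, with a mean level of 6.23, differed by -0.23 and did not pass (limma adjusted p = 0.36). Trib3 was rather dim, at percentile 42.8 of all genes by mean level. Ppp1r15a encodes GADD34, which brings a phosphatase to eIF2 and so ends the translation block. It differed by 0.00 (95% interval -0.14 to 0.13).

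Chac1, which encodes an enzyme that degrades glutathione and is a target of ATF4, varied most of these genes over the arrays. It read 8.42 and 8.73 in wild type and 8.22 and 7.84 in FoxO3 null spheres of set 1, and 7.76 and 7.80 against 7.97 and 7.77 in set 2. The wild type arrays of set 1 stood above all other arrays, and in set 2 the genotypes overlapped. Over both sets the difference was -0.23 ± 0.14 (SE, limma adjusted p = 0.469).

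**Figure D2:**
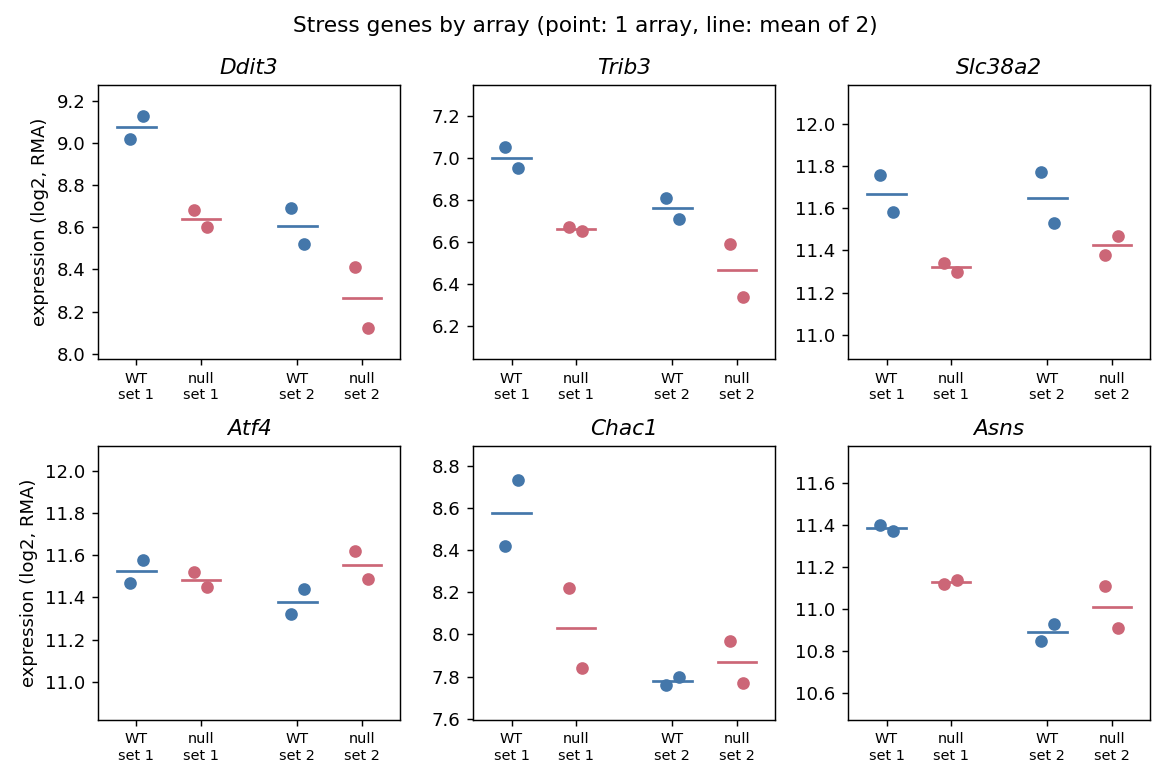
Log2 RMA expression (vertical axis) of Ddit3, Trib3, Slc38a2, Atf4, Chac1 and Asns on each of the 8 arrays, by genotype and set, with a line at the mean of 2 arrays. All panels span the same range of log2 units. The FoxO3 null points of Ddit3, Trib3 and Slc38a2 lie below the wild type points in each set, and those of Chac1 and Asns overlap with them in set 2.

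None of the 5 amino acid supply genes passed, at adjusted p from 0.0795 to 0.98 (limma). Slc38a2 encodes SNAT2, a transporter of small neutral amino acids that is induced by amino acid shortage. It read 11.76 and 11.58 in wild type and 11.34 and 11.30 in FoxO3 null spheres of set 1, and 11.77 and 11.53 against 11.38 and 11.47 in set 2. All 4 null arrays lay below all 4 wild type arrays, with a difference of -0.29 ± 0.07 (SE, limma adjusted p = 0.0795). Its other probe sets differed by -0.11 (mean level 8.99) and 0.19 (mean level 5.62). The probe sets of Slc38a2 thus do not share a sign, but the positive one is dim.

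Slc3a2, the heavy chain shared by the transporters of large neutral amino acids and of cystine, read 11.89, 11.93, 11.81 and 11.73 in wild type and 11.78, 11.84, 11.68 and 11.68 in FoxO3 null spheres. Within each set the null arrays were the lower ones, and the difference was -0.09 (limma adjusted p = 0.395). Its light chains are Slc7a5 and Slc7a11. They differed by -0.01 and 0.08. Asns, the asparagine synthetase gene and a standard ATF4 target, differed by -0.07. The 95% intervals of the 5 genes together reached from -0.44 to 0.24, or 1.36-fold down to 1.18-fold up.

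Trib3 and Slc38a2 were the members in which all FoxO3 null arrays lay below all wild type arrays, 2 of 34 against 1.69% of all genes. No member had all null arrays above all wild type arrays (0 of 34), against 2.02% of all genes. Taken within sets, 5 members had both null arrays below both wild type arrays in set 1 and again in set 2, namely Ddit3, Trib3, Xbp1, Slc3a2 and Slc38a2. That order held for 6.54% of all genes. The opposite order in both sets was that of 3 members, Psat1, Pdia3 and Pdia4, against 7.77% of all genes.

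RefSeq promoter windows (build GRCm38.p6, 250 bases before to 50 after a gene's start) were on hand for 31 of the 34 genes. The windows were searched on both strands for the composite element that ATF4 and a C/EBP partner bind, taken as TGATGNAAN where N is any base. It was found in 6 of 31 members (19.4%) and in 4.5% of the 27025 genes of the table. By role these were 2 of 3 feedback genes (Trib3 and Chac1), 2 of 4 amino acid supply genes (Asns and Slc7a11), 1 of 6 stress factors (Atf3), 1 of 10 chaperone genes (Herpud1), and 0 of 5 serine genes. The stretches are shown because they let a reader compare a gene that fell with ATF4 target genes that did not pass. Capitals mark the match, each stretch reads 5′ to 3′ on the strand of its gene, and an element on the opposite strand appears reversed and complemented. They are, in order, chr2:152344039-152344066 (minus strand), chr2:119351027-119351076 (plus), chr6:7693210-7693259 (minus), chr3:50443644-50443693 (minus) and chr1:191183414-191183463 (minus).
Trib3: agcagcagattagctcaggTTTACATCA
Chac1: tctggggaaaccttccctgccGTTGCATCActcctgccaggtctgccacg
Asns: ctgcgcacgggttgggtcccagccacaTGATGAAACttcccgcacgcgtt
Slc7a11: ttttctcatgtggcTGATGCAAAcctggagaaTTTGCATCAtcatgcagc
Atf3: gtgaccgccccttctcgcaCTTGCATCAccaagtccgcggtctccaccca

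In Trib3 the match lay in the transcribed part, at bases 14 to 22 counted from 1 at the start, and in Slc7a11 there were 2 matches facing each other. The 250 bases before the start of Ddit3 (chr10:127290543-127290792, plus strand) held no match to any of the motifs searched and so carry no capitals.
Ddit3: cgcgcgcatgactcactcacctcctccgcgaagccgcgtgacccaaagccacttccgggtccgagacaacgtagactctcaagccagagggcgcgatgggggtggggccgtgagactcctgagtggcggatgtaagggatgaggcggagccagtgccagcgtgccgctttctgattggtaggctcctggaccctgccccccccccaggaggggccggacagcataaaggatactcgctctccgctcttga

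The FoxO motif GTAAACA was found in 1 of 31 members (3.23%), Slc7a11, and in 4.05% of all genes of the table. The motif lay at bases -232 to -226 from the start, on the opposite strand to the gene. The stretch printed below, which holds it, is chr3:50443829-50443858 (minus strand). A match is a run of letters and was not tested as a binding site, and no match speaks only of these windows.
Slc7a11: ttccctggttcccTGTTTACttcttctgga

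The 5 genes of serine synthesis and mitochondrial one-carbon metabolism, also ATF4 targets, gave 0 passing genes in either direction. Phgdh, Psat1 and Psph encode the enzymes that make serine from a glycolytic intermediate, and Shmt2 and Mthfd2 pass its carbon to folate in mitochondria. Psat1 read 12.70 and 12.71 in wild type and 12.76 and 12.77 in FoxO3 null spheres of set 1, and 12.56 and 12.60 against 12.67 and 12.65 in set 2. The null arrays were the higher ones in both sets, by 0.07 (limma adjusted p = 0.499). The other Psat1 probe set differed by -0.09, so the probe sets of Psat1 do not share a sign. Phgdh read 12.81, 12.87, 12.39 and 12.47 in wild type and 12.87, 12.90, 12.70 and 12.42 in FoxO3 null spheres, which overlap in each set (difference 0.09, adjusted p = 0.573). Mthfd2 differed by 0.10, Psph by 0.01 and Shmt2 by 0.00. By the probe sets that stand for these genes, the 95% intervals lay between -0.11 and 0.26. Of the role groups, this one had the intervals that reached least far down (1.08-fold).

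The ER stress sensors are Eif2ak3 (PERK, the eIF2 kinase of the ER), Ern1 (IRE1) and Atf6, with Xbp1 as the target of IRE1. None of the 4 genes passed. Xbp1 read 10.29 and 10.37 in wild type and 10.27 and 10.21 in FoxO3 null spheres of set 1, and 10.44 and 10.57 against 10.33 and 10.33 in set 2. The null arrays were the lower ones in each set, and the fitted difference was -0.13 ± 0.05 (SE, limma adjusted p = 0.268). The other Xbp1 probe sets differed by -0.02, -0.16 and 0.02. Arrays of this kind do not separate the spliced from the unspliced Xbp1 mRNA by gene symbol. Atf6 read 8.53, 8.45, 8.85 and 8.76 in wild type and 8.32, 8.46, 8.73 and 8.76 in FoxO3 null spheres, which overlapped in set 1 and met in set 2. The difference was -0.08 (adjusted p = 0.522), and Ern1 and Eif2ak3 differed by 0.07 and 0.00.

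The 11 chaperone and folding genes gave 0 passing genes over both sets, with 2 of them at an unadjusted p under 0.05. Their median difference was 0.04. Sdf2l1, a small ER chaperone cofactor induced with the unfolded protein response, read 7.53 and 7.44 in wild type and 7.62 and 7.51 in FoxO3 null spheres of set 1. In set 2 it read 7.73 and 7.77 against 8.10 and 8.12. The genotypes overlapped in set 1 and stood well apart in set 2. Over both sets the difference was 0.22 ± 0.07 (SE, limma adjusted p = 0.15).

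Pdia4, a protein disulfide isomerase of the ER, read 8.72 and 8.73 against 8.77 and 8.77 in set 1, and 8.80 and 8.69 against 8.96 and 9.01 in set 2, wild type first. The null arrays were higher in both sets, by 0.14 over both (adjusted p = 0.265). Hspa5, which encodes BiP, the central chaperone of the ER lumen, read 12.81, 12.83, 12.81 and 12.85 in wild type and 12.84, 12.76, 12.95 and 12.94 in FoxO3 null spheres. That difference was 0.05 (95% interval -0.07 to 0.16, limma adjusted p = 0.734). The genotypes overlapped for Hspa5 in set 1 and not in set 2.

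Pdia3 and Pdia6, further disulfide isomerases, differed by 0.10 and 0.01. Calr, the calcium-binding lectin chaperone calreticulin, differed by 0.05, Hsp90b1, the ER member of the HSP90 family, by -0.07, and Hyou1, an ER member of the HSP70 superfamily, by -0.05. Dnajb9 and Dnajc3, J-domain cofactors of BiP, differed by -0.10 and 0.04, and Herpud1, a component of ER-associated degradation, by -0.04. The 95% intervals of the 11 genes reached from -0.23 to 0.37, so changes up to 1.17-fold down or 1.29-fold up lie within them. The other 4 probe sets of Dnajc3 differed by 0.15 to 0.21, more than the 0.04 of the one that stands for the gene.

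**Figure D3:**
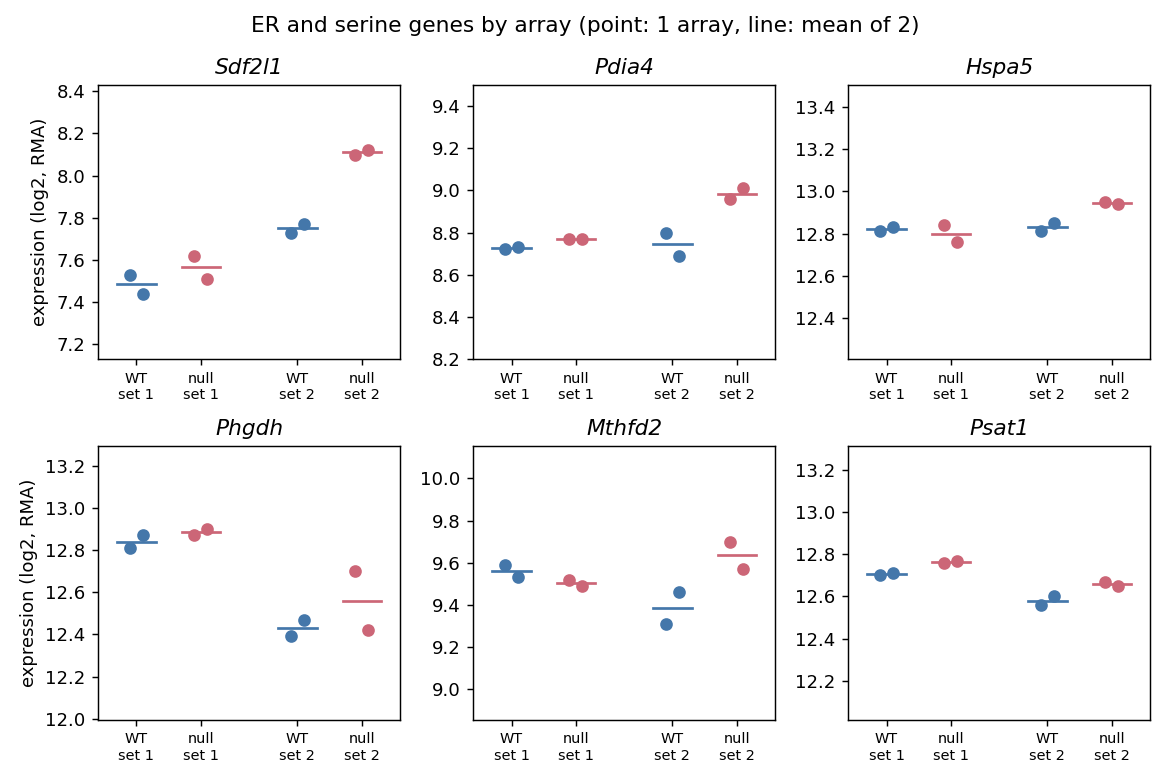
Log2 RMA expression (vertical axis) of the ER genes Sdf2l1, Pdia4 and Hspa5 and the serine and one-carbon genes Phgdh, Mthfd2 and Psat1 on each of the 8 arrays, by genotype and set, with a line at the mean of 2 arrays. All panels span the same range of log2 units. Sdf2l1 in set 2 reads 8.10 and 8.12 in FoxO3 null spheres and 7.73 and 7.77 in wild type.

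The ER stress element, which ATF6 and XBP1 are known to act on, was searched as CCAAT and CCACG with 9 free bases between them, on both strands. It was present in 5 of 10 chaperone genes, in 0 of the other 21 members with a window, and in 0.137% of all genes of the table. The 5 genes were Hspa5, Hsp90b1, Calr, Pdia6 and Dnajc3, and Hsp90b1 held 2 matches, 1 on each strand. The stretches are shown because genes that carry this element differed little with genotype. They lie at chr2:34772005-34772064 (plus strand), chr8:84847052-84847111 (minus), chr12:17266471-17266530 (plus), chr14:118937807-118937866 (plus) and chr10:86705524-86705666 (minus), in the order below, with the whole element in capitals.
Hspa5: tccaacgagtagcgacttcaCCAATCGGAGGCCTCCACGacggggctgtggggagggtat
Calr: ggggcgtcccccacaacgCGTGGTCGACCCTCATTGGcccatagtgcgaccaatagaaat
Pdia6: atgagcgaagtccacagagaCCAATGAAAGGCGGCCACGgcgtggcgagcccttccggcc
Dnajc3: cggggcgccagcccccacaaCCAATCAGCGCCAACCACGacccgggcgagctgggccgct
Hsp90b1: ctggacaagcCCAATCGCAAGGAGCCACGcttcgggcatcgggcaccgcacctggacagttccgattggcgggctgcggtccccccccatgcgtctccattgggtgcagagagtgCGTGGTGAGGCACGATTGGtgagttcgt

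Sdf2l1, the chaperone gene with the largest difference, held no match of this element in its window.

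The genotype difference was also taken in each set, from a fit that keeps the 4 combinations of set and genotype. In set 1, 0 members passed (limma), against 0.742% of all genes in either direction. At an unadjusted p under 0.05, 6 members were lower in set 1 and 0 higher, where 5.32% and 5.56% of all genes were. They were Ddit3 (-0.43), Trib3 (-0.34), Chac1 (-0.54), Atf5 (-0.29), Slc38a2 (-0.35) and Asns (-0.25), with adjusted p from 0.123 to 0.27. In set 1, 23 of 34 members had a negative sign, as did 44.4% of all genes, and the median was -0.05, beside 0.02 over all genes. With a variance trend in limma, Ddit3, Chac1, Asns and Slc38a2 passed in set 1, where 2.22% of all genes did.

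In set 2, 1 member passed, Sdf2l1, which was 0.37 ± 0.07 higher in FoxO3 null spheres (SE, limma adjusted p = 0.0412), against 1.93% of all genes in either direction. That call was lost without any 1 of the 8 arrays, at adjusted p up to 0.218. At an unadjusted p under 0.05, 4 members were lower in set 2 (Ddit3, Trib3, Slc38a2 and Xbp1) and 3 higher (Sdf2l1, Pdia4 and Mthfd2). Over all genes these shares were 7.02% and 7.32%, so the members' counts are near the background. Ddit3 differed by -0.34 and Trib3 by -0.29 in set 2, close to their values in set 1. In set 2, 23 members had a positive sign, as did 50.8% of all genes, and the median was 0.07, beside 0.00 over all genes.

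Whether the genotype difference itself differed between the sets was tested by the interaction of set and genotype. No member passed (0 of 34, limma), against 0.187% of all genes. At an unadjusted p under 0.05, 7 members had a more positive difference in set 2 and 0 a more negative one, where 4.04% and 4.66% of all genes did. Chac1 had the largest value, 0.63 ± 0.19 (SE, limma adjusted p = 0.332), from -0.54 in set 1 to 0.09 in set 2. Asns went from -0.25 to 0.12 (adjusted p = 0.343), Atf5 from -0.29 to 0.08 (0.31), Slc7a5 from -0.16 to 0.15 (0.422) and Mthfd2 from -0.06 to 0.25 (0.47). Sdf2l1 and Herpud1 were the other two.

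Asns shows how these values arise. It read 11.40 and 11.37 in wild type and 11.12 and 11.14 in FoxO3 null spheres of set 1, and 10.85 and 10.93 against 11.11 and 10.91 in set 2. Its wild type level dropped between the sets more than its null level did. Atf5 read 8.72 and 8.76 against 8.39 and 8.5 in set 1, and 8.77 and 8.87 against 8.95 and 8.86 in set 2. Here the null arrays of set 1 were the ones that stood apart. Both null arrays were below both wild type arrays in set 1 and above them in set 2 for 3 members, Slc7a5, Psph and Mthfd2, against 2.58% of all genes. The reverse order occurred in 0 members, against 3.26%. Over all members, 28 of 34 had a positive interaction value, where 47.9% of all genes did, and the median was 0.08.

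**Figure D4:**
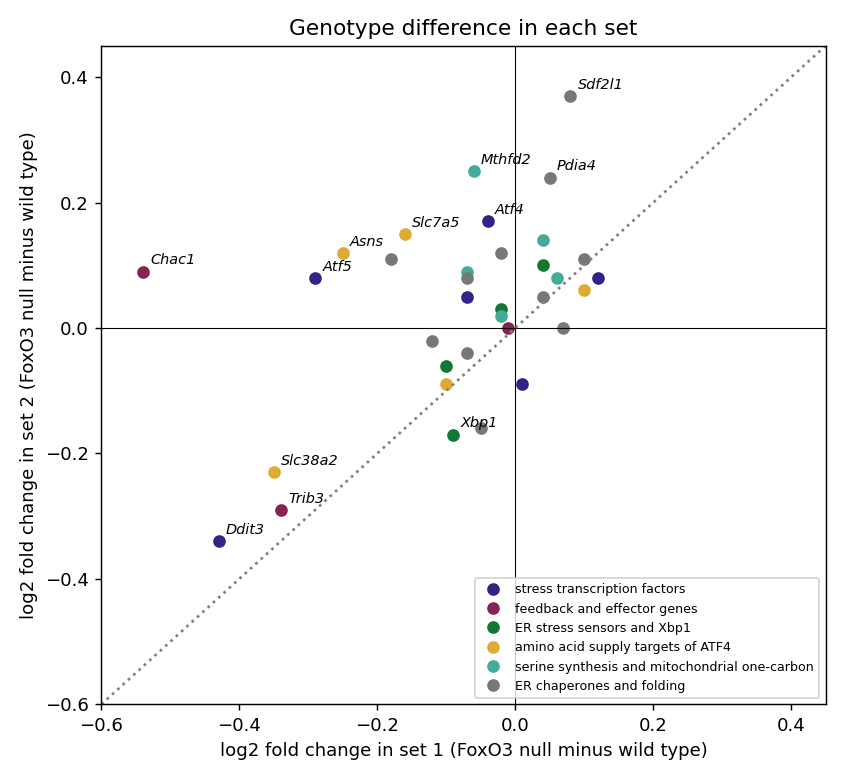
Genotype difference (log2 fold change, FoxO3 null minus wild type) in set 1 (horizontal axis) and set 2 (vertical axis), 1 point per gene, coloured by role, with a dotted line of equal values. Ddit3, Trib3 and Slc38a2 lie near the line at negative values in both sets, whereas 28 of 34 points lie above it, Chac1 farthest.

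More members differed between the sets than between the genotypes, as did genes at large. Between sets, 9 members were lower in set 2 and 10 higher (limma, additive with genotype), against 21.6% and 22.2% of all genes. Among the stress factors, Ddit3 was lower by a difference of -0.42 ± 0.07 (SE, limma adjusted p = 0.00121) and Cebpg by -0.23, whereas Cebpb and Atf5 were higher by 0.40 and 0.27. Of the feedback genes, Chac1 (-0.48) and Trib3 (-0.22) were lower in set 2. The members that passed as lower in FoxO3 null spheres were thus also lower in set 2.

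Amino acid supply and serine genes passed only as lower in set 2. Asns (-0.31, adjusted p = 0.0116), Slc7a5 (-0.21) and Slc3a2 (-0.13) made up 3 of 5 supply genes, and Phgdh (-0.37, adjusted p = 0.00148, limma) was 1 of 5 serine genes. The chaperone genes had the opposite sign, with all 11 values positive and 6 passing as higher in set 2. By the probe sets that stand for the genes, Pdia3 showed the largest set difference of any member, 0.60 ± 0.05 (SE, limma adjusted p = 1.1e-05). It read 11.81 and 11.84 in wild type and 11.90 and 11.95 in FoxO3 null spheres of set 1, and 12.44 and 12.40 against 12.57 and 12.49 in set 2. Every array of set 2 lay above every array of set 1. Sdf2l1 (0.40), Hsp90b1 (0.23), Calr, Dnajb9 and Pdia6 (0.19 each) were the other five. Of the sensors, Atf6 (0.33) and Eif2ak3 (0.27) were higher and Ern1 (-0.37) lower. Some probe sets that do not stand for their gene differed more between the sets. Over all their probe sets, Dnajc3 differed by 0.15 to 1.04 and Atf4 by -0.97 to -0.04.

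**Figure D5:**
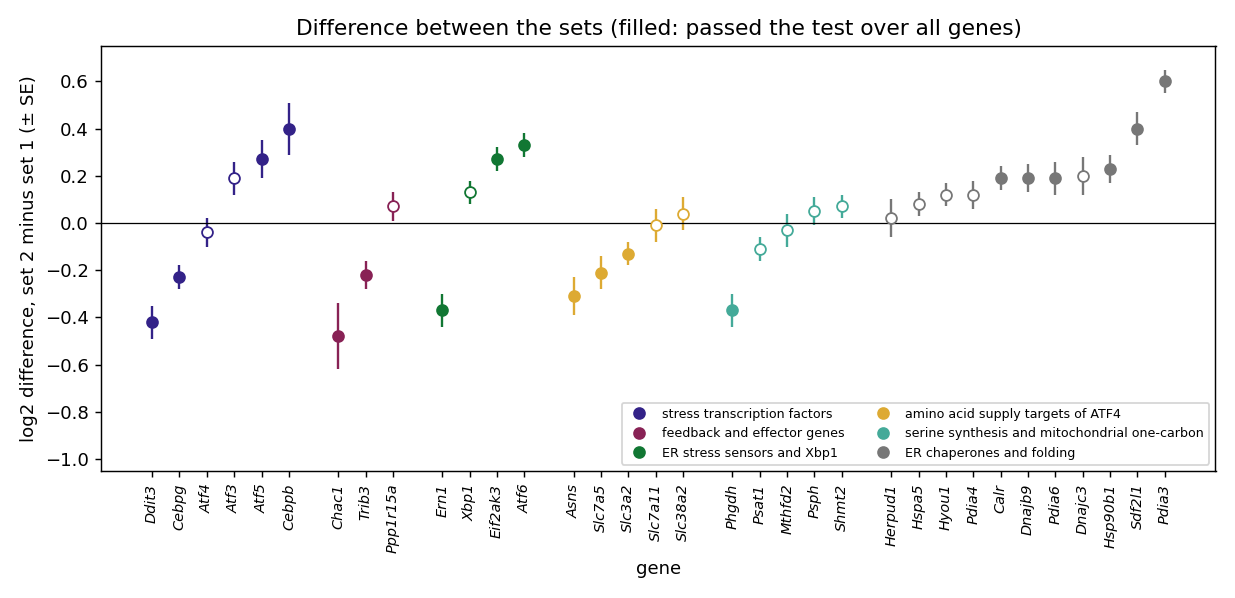
Difference between the sets (log2, set 2 minus set 1, with its standard error) for each of the 34 genes, grouped and coloured by role. Filled points passed the limma test over all genes. All 11 chaperone genes lie above 0, up to Pdia3 at 0.60, whereas Chac1 at -0.48 and Ddit3 at -0.42 lie lowest.

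Cell type markers moved with the sets as well. All 7 oligodendrocyte markers measured were higher in set 2, with a median difference of 1.09 and a range of 0.46 to 2.64. Their mean level was 8.71 to 8.85 on the arrays of set 1 and 10.10 to 10.44 on those of set 2. Of 12 progenitor markers, 5 passed as lower and 2 as higher in set 2, with values from -1.36 to 1.13. Of 7 astrocyte markers 3 passed as higher, and of 8 microglial markers 4 passed as lower. Each of the other cell type lists also held passing genes. The 3′ minus 5′ signal of the actin control, a measure of RNA quality, was 0.47 to 0.54 in set 1 and 0.33 to 0.39 in set 2. The same signal of the Gapdh control was -0.10 to -0.07 in set 1 and -0.11 to -0.07 in set 2, so only actin shifted. The part of the cell types behind these markers or of RNA quality in the set differences of the stress genes was not tested. In such bulk samples, fewer cells of a type and less RNA per cell cannot be told apart.

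Other genes of these pathways were read from lists, with limma over both sets as above. Of 19 cytosolic tRNA synthetase genes, many of them ATF4 targets, 0 passed in either direction and the median difference was 0.05. A list around the eIF2 kinases and phosphatase held 7 genes (Eif2ak1, Eif2ak2, Eif2ak4, Eif2b5, Ppp1r15b, Gcn1 and Impact), and 0 passed (median 0.07). Of 10 cytosolic heat shock genes 0 passed (median 0.05). Among 31 further ER folding and degradation genes, 1 was lower and 1 higher, with a median of 0.02. The lower one was Ero1a, the oxidase that recharges disulfide isomerases and a target of hypoxia (-0.84 ± 0.16, adjusted p = 0.0313), and the higher one Creb3l2, a transcription factor of the ER membrane (0.36 ± 0.07, adjusted p = 0.0256).

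Among 22 further ATF4 targets and amino acid genes, 1 was lower and 0 were higher, with a median of -0.07. The lower one was Ddit4, which encodes the mTORC1 inhibitor REDD1 and responds to stress, hypoxia and FoxO factors. It fell by 0.90 ± 0.12 (SE, limma adjusted p = 0.00609), by 1.20 in set 1 and by 0.60 in set 2. In set 1 alone, Aldh1l2, a mitochondrial folate enzyme, and Bcat1, which transaminates branched-chain amino acids, also passed as lower, both at -0.54 (adjusted p = 0.02 and 0.0239). The median of this list was -0.17 in set 1 and 0.09 in set 2. As in the members, 20 of 22 interaction values were positive and 0 passed.

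Other measures moved with genotype beside Ddit3 and Trib3. Of 18 hypoxia and HIF target genes, 7 were lower in FoxO3 null spheres and 0 higher, with a median of -0.51, led by Mxi1 (-0.50), Slc2a1 (-0.67) and Adm (-0.55). Their mean was 10.13 to 10.32 on wild type arrays and 9.38 to 10.01 on FoxO3 null arrays. Of 7 oligodendrocyte lineage markers, Pdgfra (-0.67), Cspg4 (-0.56) and Sox10 (-0.27) were lower. The myelin genes Mbp, Mag and Mog had values of 0.44, 0.38 and 0.24 and did not pass, though Mbp was higher in set 1 (0.87, limma adjusted p = 0.00346). The neuronal gene Gad1 (-0.91) was lower as 1 of 10 in its list, and the astrocyte transporter Slc1a2 (-0.84) as 1 of 7. Of 12 progenitor markers, the filament gene Nes (0.29) was higher, Hes5 (-0.29) and Sox2 (-0.26) did not pass, and the median was -0.03. No microglial, endothelial, fibroblast, ependymal or blood marker passed (0 of 8, 6, 6, 5 and 3 genes). The part of these lists in the fall of Ddit3 and Trib3 was not tested.

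The 3 Y-linked genes measured were lower in FoxO3 null spheres too, by a median of -0.45, with Eif2s3y (-0.64) and Uty (-0.42) passing. Their mean was 8.18 to 8.35 in wild type and 7.90 to 8.09 in FoxO3 null spheres of set 1, and 7.66 to 7.80 against 6.88 to 7.10 in set 2. With this mean as a covariate, Ddit3 differed by -0.55 (adjusted p = 0.252, limma) and Trib3 by -0.39 (0.426), whereas Chac1 passed at -0.90 (0.042). Genes passing in either direction then numbered 8, in place of 291. Within sets the Y-linked mean went with genotype (r = -0.861). The fit with this covariate can therefore hardly tell Y-linked level and genotype apart, and it loses power for every gene. The same actin signal was 0.52 to 0.54 on wild type and 0.47 to 0.49 on FoxO3 null arrays of set 1, so that the null arrays were the lower ones there. In set 2 it was 0.36 to 0.39 and 0.33 to 0.36. The Gapdh signal was -0.08 to -0.07 on wild type and -0.10 to -0.09 on FoxO3 null arrays of set 1. In set 2 the Gapdh signal was -0.11 to -0.07 and -0.11 to -0.10. The part of RNA quality in these differences was not tested.

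The calls of Ddit3 and Trib3 sat close to the threshold. Both held without FoxO3 null array 2_1, and without wild type array 2_2 Ddit3 and Slc38a2 passed in place of the pair. Without any 1 of the other 6 arrays (the 4 of set 1, wild type 2_1 and FoxO3 null 2_2) 0 members passed. The difference of Ddit3 stayed between -0.45 and -0.34 over these omissions (adjusted p 0.0175 to 0.105) and that of Trib3 between -0.37 and -0.27 (0.0234 to 0.133). With 1 averaged value per set and genotype in place of single arrays, 0 members and 0 of 18193 genes passed. So few values leave that fit little power, and its 0 says little about Ddit3 and Trib3.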

How the data were processed

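The authors deposited 1 table of log2 expression values. Per the submitters' processing notes these come from RMA (version not given in the sources used here), which corrects background, equalises the distributions of the arrays and merges the probes of each probe set. Differences are therefore relative to the other genes, and those of dim probe sets are compressed. The number of arrays limits the precision.

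Of 45101 probe sets, 64 controls were left out. Of the 45037 tested, 34945 have 1 gene symbol, 932 several and 9160 none. The fit used limma 3.58.1 in R 4.3.3 (lmFit, eBayes) on 18193 genes with set as a term, 2-sided, with Benjamini-Hochberg adjustment. Contrasts by set and the interaction came from a fit of the 4 combinations of set and genotype. The fit was tested on simulated data. The members, lists and tests were chosen with earlier results of these data known. Values of every array are given for members that passed and for up to 2 per role with the smallest p. Other members with array values were chosen after their values were seen. Other lists are given by counts, with up to 3 passing genes by smallest p. Markers and pathway genes named beyond that were chosen after their values were seen.

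Arrays with the same number deviated together little from the mean of their set and genotype (r = 0.118 in set 1 and -0.11 in set 2). The numbers were therefore not used as pairs, though 2 arrays per set and genotype make this a weak check. Promoter sequences are those of RefSeq (GRCm38.p6, 32851 windows). Alternatives covered the set term, blocks, normalization, a filter on dim genes, the choice of probe set, the variance model, the threshold, a Y-linked covariate and leaving out each array.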

Additional observations from a re-analysis of the deposited data

Results flagged for a closer look

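In 3 of the 68 groups of 4 arrays formed by a member and a genotype, 1 array stood apart from the other 3, by a gap over the group's whole range above Dixon's 95% critical value for 4 samples. Were the 4 values of a group drawn alike, chance would flag about 1 in 20 groups. Each group mixes arrays of both sets, so that rate need not hold here. For Atf3 in wild type the ratio was 0.86, with array 1_2 at 5.70 and the others at 6.03 to 6.08. For Asns in FoxO3 null spheres it was 0.88, with array 2_2 at 10.91 and the others at 11.11 to 11.14. For Shmt2 in wild type it was 0.92, with array 2_2 at 11.01 and the others at 10.91 to 10.92.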

How the results depend on the processing

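The count of 2 members lower in FoxO3 null spheres became 0 with no set term, with set as a random block, with the mean of the 2 arrays of a set and genotype, with no moderation of the variance and with the mean of a gene's probe sets. It became 1 with the probe set of largest variance, with adjustment over all probe sets and with the replicate block. With that block Ddit3 passed and Trib3 did not (limma adjusted p = 0.0533). With the Y-linked covariate the count was also 1, but the gene was Chac1, and Ddit3 and Trib3 did not pass. The count became 3 with the arrays of a set and genotype as a random block and at an adjusted p under 0.1. It was also 3 with a variance trend and with a trend and robust fit. Leaving out 1 array gave 0 to 2. By deviations from the mean of their genotype alone, 6 of 8 arrays correlated best with the array of their own number. Those deviations hold the difference between the sets, so this count cannot settle whether the numbers are pairs. The count of 0 in set 1 became 4 with a variance trend and 4 with a trend and robust fit, and stayed 0 on leaving out each array. The count of 1 in set 2 became 0 in set 2 alone, with quantile normalization again, with no moderation, with the probe set of largest variance, with adjustment over all probe sets, and on leaving out each array. The 19 members that differed between sets became 12 with no moderation, and 13 to 17 on leaving out an array. Members higher in FoxO3 null spheres and members with an interaction stayed at 0 in every alternative run. Ddit3 lost its call in 12 of 25 alternatives and Trib3 in 16 of 24, each with its sign kept (adjusted p 0.00688 to 0.98 and 0.0104 to 0.886), and Sdf2l1 in set 2 in 13 of 20 (0.0137 to 0.218). Slc38a2 passed in 6 of 25, and differed by 0.19 with its probe set of largest variance, a dim one (mean level 5.62). The cause of these differences was not tested.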
